A study of Homo sapiens with 16 samples.

Results

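ESR1, ESR2, ESRRA and ESRRG encode 4 nuclear receptors, and their rows were taken by gene name from the count tables of 2 human cancer cell lines, 4 of 26364 genes in all. ESR1 and ESR2 encode the estrogen receptors α and β (ERα and ERβ). ESRRA and ESRRG encode the estrogen-related receptors α and γ (ERRα and ERRγ). Bulk RNA-seq libraries came from Ishikawa cells (a line from a human endometrial adenocarcinoma) and T-47D cells (a line from a human breast carcinoma). In both lines, cells were first kept for 3 days, by the labels, in medium with charcoal-stripped serum (the study's methods give a longer time). They then received 10 nM 17β-estradiol (E2) for 2, 4 or 8 h. By the study's methods, cells of 0 h received vehicle, and their libraries are called untreated below. No vehicle library was taken at 2, 4 or 8 h, so effects of E2 and of the elapsed hours cannot be told apart. Each time point of each line had 2 libraries, which gave 16 in all. The labels do not say whether the 2 libraries of a time point came from separate cultures, so the p-values below measure the spread between libraries, which may be technical.

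ERα and ERβ are transcription factors that bind E2, pair up and attach to estrogen response elements near their target genes. ERα is the main estrogen receptor of endometrial and luminal breast epithelium, and its messenger RNA and protein are themselves known to fall or rise after hormone, depending on the cell. The estrogen-related receptors share the DNA-binding fold but do not bind estrogens. They act with the coactivators PGC-1α and PGC-1β on genes of mitochondrial oxidative metabolism.

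After E2, ESR1 mRNA moved in opposite directions in the 2 lines. In Ishikawa cells it fell at 2, 4 and 8 h, by 1.36-fold at 8 h. In T-47D cells it rose at the same 3 time points, by 1.22-fold at 8 h. The Ishikawa call at 2 h and the T-47D calls at 2 and 4 h were each lost without certain single libraries. ESRRA, the other abundant member, was lower at 8 h in T-47D cells by 1.15-fold, a call that also rested on single libraries, while its higher values in Ishikawa cells at 4 and 8 h did not pass the test. ESR2 and ESRRG were scarce in both lines, and neither passed a test at any time.

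Totals ran from 41177912 to 64148903 counts per library. Of the counts between 1 and 10, 71.2% to 74.6% were even numbers, so that 1 count need not be 1 independent fragment. Summed lineage markers matched the labels, though not every single marker did. The 6 endometrial and Müllerian markers summed to 355 to 475 CPM (a count scaled to its library's size) in Ishikawa libraries and 0.428 to 0.97 CPM in T-47D libraries, and the 7 luminal breast markers summed to 29.7 to 40.4 CPM and 2370 to 3050 CPM, respectively. Median levels exceeded 1 CPM for 2 of the 7 luminal markers in Ishikawa and 6 in T-47D cells, and for 5 and 0 of the 6 endometrial ones. TFF1, TFF3 and PIP, of the luminal list, were at 0 in every Ishikawa library, but TRPS1 stood there at 28.4 to 39.2 CPM. In T-47D libraries ANKRD30A, also luminal, was at 0 to 0.0817 CPM and TFF1 at 0.594 to 2.77 CPM. HOXA9, of the endometrial list, was at 0.134 to 0.418 CPM in Ishikawa libraries. All 5 epithelial markers exceeded 1 CPM in both lines, and no more than 2 genes of any 1 of the fibroblast, leukocyte, endothelial, and muscle and adipose lists did in either line, led by the collagen gene COL1A1 at 150 to 269 CPM in Ishikawa cells and 71.8 to 92.2 CPM in T-47D cells. Libraries of different times were not always further apart than replicates. In Ishikawa cells, replicate 2 of 4 h lay at a root mean square log2 difference of 0.328 from replicate 1 of 8 h. Replicates lay further from each other at 4 h (0.388) and 8 h (0.354). Replicate 1 of 4 h also lay closer to both 8 h libraries (0.364 and 0.365) than to its own replicate. So did replicate 2 of 4 h to both 2 h libraries (0.364 and 0.354), and replicate 1 of 8 h to replicate 2 of 2 h (0.344). In T-47D cells, replicate 1 of 2 h lay at 0.327 from replicate 1 of 4 h and at 0.337 from its own replicate. Results at 4 and 8 h were therefore also computed with the 4 late libraries of a line as 1 group. A lower level in bulk RNA can come from fewer cells of a type or from less RNA per cell, and these cannot be told apart here.

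On GRCh37 (hg19), ESR1 spans chr6:151977826-152450754 on the plus strand, ESR2 chr14:64550950-64804830 on the minus strand, ESRRA chr11:64072969-64084215 on the plus strand and ESRRG chr1:216676588-217311097 on the minus strand. ESRRG has the longest span, 634510 bp, and ESRRA the shortest, 11247 bp. The sequences just upstream of the canonical transcript starts are shown for the 2 members whose level passed a test after E2 and for ESR2, whose stretch was the one of the 4 that held receptor half-sites (GGTCA on either strand, in capitals). They are the part of the last 250 bases before the start that overlaps no annotated exon of the gene, 5′ to 3′ on the gene's strand, at chr6:152128645-152128813 (plus), chr11:64072746-64072968 (plus) and chr14:64761129-64761339 (minus), read from GRCh37 and found whole in a RefSeq window.
ESR1: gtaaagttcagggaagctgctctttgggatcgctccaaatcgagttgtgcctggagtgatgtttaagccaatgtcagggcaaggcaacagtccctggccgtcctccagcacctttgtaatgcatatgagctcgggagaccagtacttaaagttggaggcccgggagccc
ESRRA: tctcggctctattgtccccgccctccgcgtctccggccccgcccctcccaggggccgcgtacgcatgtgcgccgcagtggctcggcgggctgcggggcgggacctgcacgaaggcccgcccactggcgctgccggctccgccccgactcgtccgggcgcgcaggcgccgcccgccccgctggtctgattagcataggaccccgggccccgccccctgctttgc
ESR2: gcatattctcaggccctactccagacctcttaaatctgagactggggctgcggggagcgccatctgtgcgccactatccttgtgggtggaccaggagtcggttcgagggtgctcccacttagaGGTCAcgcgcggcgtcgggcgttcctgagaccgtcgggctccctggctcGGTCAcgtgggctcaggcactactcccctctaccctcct

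These promoters differed in base composition. The printed ESRRA stretch was 77.6% G or C with 31 CpG dinucleotides, against 53.8% and 5 in ESR1 and 63.5% and 15 in ESR2. Over 250 upstream bases, ESRRA stood at 78% and ESR1 at 56%, beside a median of 58% in 35116 RefSeq promoter windows. Those windows run from 250 bases before to 50 after a start (GRCh38.p14), and the members had 20 of them, 6 for ESR1, 5 for ESR2, 1 for ESRRA and 8 for ESRRG. The palindromic estrogen response element GGTCANNNTGACC, present in 0.057% of all windows, had 0 matches in the 20. The extended half-site TCAAGGTCA, to which estrogen-related receptors bind and which stood in 0.353% of windows on either strand, also had 0 matches. The half-site GGTCA, which both longer motifs contain, was in 10 of the 20 and in 37.4% of all windows. Those 10 were 6 of ESRRG, 3 of ESR2, 1 of ESR1 and 0 of ESRRA. Some windows of a gene overlapped, so the 20 are not independent. None of this says where a receptor binds, since enhancers lie outside such windows.

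ESR1, the ERα gene, was the most abundant member. At 0 h in Ishikawa cells, its 2 libraries held 11389 and 10918 counts, or 242.4 and 228.1 CPM. With E2 they stood at 198.3 and 201.6 CPM after 2 h, 170.4 and 171.2 CPM after 4 h, and 169 and 177.1 CPM after 8 h. Every treated library lay below both untreated ones, and the 4 late libraries lay below both 2 h libraries.

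By edgeR's quasi-likelihood test, ESR1 changed in Ishikawa cells by -0.23 ± 0.056 on the log2 scale (SE, adjusted p = 0.0298) at 2 h, where 4.35% of the 15787 genes tested passed. The change was -0.45 ± 0.056 (adjusted p = 5.33e-05) at 4 h, with 14.3% of genes past the threshold, and -0.45 ± 0.056 (adjusted p = 6.05e-05) at 8 h, with 22.1%. Only 26.1%, 16.5% and 18.2% of genes had a larger change in either direction at 2, 4 and 8 h. ESR1 was also lower at 4 h than at 2 h by 0.23 on the log2 scale (adjusted p = 0.0451, 2.39% of genes passed), whereas 8 h and 4 h differed by 0.01 (adjusted p = 0.996, 0.0127% passed). The drop was thus 0.86-fold at 2 h and 0.73-fold at 4 and 8 h. With the 4 and 8 h libraries as 1 group the fall remained past the threshold. The 2 h call was lost without either 2 h library (adjusted p = 0.296 without replicate 1 and 0.28 without replicate 2) or without replicate 1 of 0 h (0.062), and the call of 4 h against 2 h was lost without any 1 of their 4 libraries (adjusted p from 0.0695 to 0.398).

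In T-47D cells ESR1 started lower and went up. Its untreated libraries held 7392 and 6703 counts, 170.7 and 165.9 CPM. The 2 h libraries stood at 191.7 and 196.6 CPM, the 4 h libraries at 187 and 198.2 CPM, and the 8 h libraries at 204.3 and 208 CPM. No treated library overlapped the untreated range, while the ranges of 2 h and 4 h overlapped each other.

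ESR1 changed there by 0.20 ± 0.044 (SE, adjusted p = 0.006, edgeR's quasi-likelihood test) at 2 h, 0.19 ± 0.044 (adjusted p = 0.00464) at 4 h and 0.29 ± 0.044 (adjusted p = 5.68e-05) at 8 h on the log2 scale. Of 15594 genes, 9.30% passed at 2 h, 21.5% at 4 h and 29.7% at 8 h. These increases were 1.15-fold, 1.14-fold and 1.22-fold, and 30.3%, 39.9% and 30.9% of genes had a larger change. Neither later step passed: 4 h against 2 h gave -0.01 (adjusted p = 0.964, 3.40% of genes passed) and 8 h against 4 h gave 0.10 (adjusted p = 0.236, 3.42% passed). The 2 h call was lost without replicate 2 of 2 h (adjusted p = 0.0921) and the 4 h call without replicate 2 of 4 h (0.0894), and the 8 h call held without each library in turn.

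**Figure D1:**
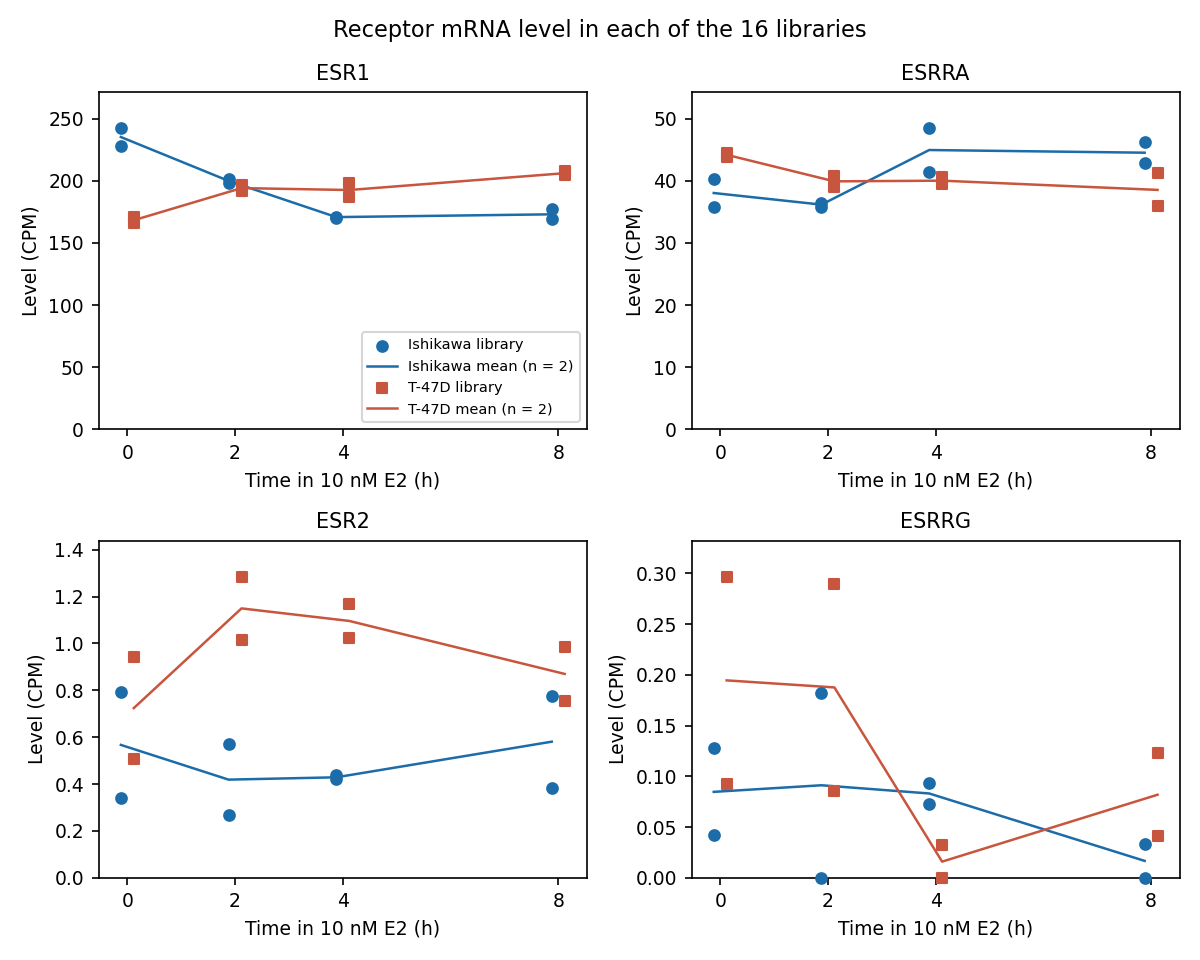
Level of each receptor mRNA in CPM (y axis, from 0, a separate scale for each gene) against hours in 10 nM E2 (x axis). Points are single libraries, circles for Ishikawa and squares for T-47D, and lines join the means of 2 libraries. ESR1 ran from 235.2 to 173 CPM in Ishikawa cells and from 168.3 to 206.1 CPM in T-47D cells, while ESR2 stayed at or below 1.285 CPM and ESRRG at or below 0.2969 CPM.

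Without E2 the ESR1 level differed between the lines by -0.48 ± 0.049 on the log2 scale (T-47D against Ishikawa, SE, adjusted p = 1.36e-08), 1.40-fold lower in T-47D cells. That contrast passed for 81.9% of 17090 genes, and 71.3% of genes differed by more, so the gap was an ordinary one between these 2 lines. By 2 h the lines were near each other, at 199.9 ± 2.29 CPM in Ishikawa and 194.1 ± 3.47 CPM in T-47D cells (SD, n = 2). At 8 h the order had turned, with 173 ± 5.72 CPM in Ishikawa and 206.1 ± 2.61 CPM in T-47D cells. Ordered from high to low, the 8 group means began with Ishikawa 0 h at 235.2 CPM, T-47D 8 h and Ishikawa 2 h, each without overlap with the next. T-47D 2 h and 4 h overlapped, and the last 3, Ishikawa 8 h, Ishikawa 4 h and T-47D 0 h at 168.3 CPM, overlapped each with its neighbour.

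The change in T-47D cells minus that in Ishikawa cells was 0.44 ± 0.069 at 2 h (SE, adjusted p = 0.00039), then 0.66 ± 0.069 at 4 h (adjusted p = 1.90e-06) and 0.74 ± 0.069 at 8 h (adjusted p = 3.40e-07) on the log2 scale, from edgeR's quasi-likelihood test over all 16 libraries. In these comparisons 2.67%, 6.03% and 10.0% of genes passed. Each of the 3 held without any 1 library, with adjusted p up to 0.00831, 3.88e-05 and 6.33e-06. Of 14307 genes tested in both lines, 278 at 2 h, 1018 at 4 h and 1609 at 8 h were called in both. Of these, 11, 31 and 72 were lower in Ishikawa and higher in T-47D cells, ESR1 among them each time. Those 11, 31 and 72 genes made 0.0769%, 0.217% and 0.503% of the genes tested. The reverse opposition was called for 24, 79 and 126 genes.

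ESRRA, the ERRα gene, was second in abundance per transcript length. In Ishikawa cells its libraries held 35.82 and 40.21 CPM before E2, 36.47 and 35.82 CPM after 2 h, 48.45 and 41.41 CPM after 4 h, and 42.78 and 46.22 CPM after 8 h. All 4 late libraries lay above both untreated ones. In T-47D cells they held 44.45 and 43.87 CPM before E2, 40.79 and 38.99 CPM after 2 h, 40.54 and 39.46 CPM after 4 h, and 41.17 and 35.86 CPM after 8 h. Every treated T-47D library lay below both untreated ones, a gap of at most 1.15-fold in the means.

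In Ishikawa cells the ESRRA differences of -0.06, 0.25 and 0.22 on the log2 scale at 2, 4 and 8 h (SE 0.086, 0.086 and 0.085) had adjusted p of 0.764, 0.067 and 0.0743 in edgeR's quasi-likelihood test. The 4 h value passed without a filter on low counts (0.23, adjusted p = 0.0331) and without replicate 2 of 4 h (0.35, adjusted p = 0.03). With the 4 late libraries as 1 group, ESRRA was higher by 0.23 (adjusted p = 0.0256). In T-47D cells the values were -0.15 ± 0.066 (adjusted p = 0.17), -0.15 ± 0.065 (adjusted p = 0.12) and -0.20 ± 0.066 (adjusted p = 0.0303), so that only 8 h passed. This T-47D call was lost without either 0 h library (adjusted p = 0.103 and 0.0883), without replicate 1 of 2 h (0.0517), and without replicate 2 of 8 h, where the difference shrank to -0.09 (0.353). It rests on single libraries, unlike the 8 h changes of ESR1.

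At 0 h ESRRA was higher in T-47D than in Ishikawa cells by 0.22 ± 0.082 on the log2 scale (SE, adjusted p = 0.0205), and 86.9% of genes differed more between the lines. The call was lost without replicate 1 of Ishikawa 0 h (0.15, adjusted p = 0.151) or without either T-47D 0 h library (0.0733 and 0.0512). T-47D minus Ishikawa changes were -0.07 ± 0.12 (adjusted p = 0.975) at 2 h, -0.38 ± 0.12 (adjusted p = 0.0553) at 4 h and -0.42 ± 0.12 (adjusted p = 0.022) at 8 h, and only the last passed. DESeq2 gave -0.42 (adjusted p = 0.0145) at 4 h. The 8 h difference lost its call without replicate 2 of Ishikawa 8 h (adjusted p = 0.063), without either T-47D 0 h library (0.0698 and 0.0521) or without replicate 2 of T-47D 8 h (0.112). Over the 8 group means, ESRRA ran only from 44.93 CPM in Ishikawa cells at 4 h to 36.15 CPM in Ishikawa cells at 2 h, and all neighbours in that order overlapped except T-47D 0 h and T-47D 4 h.

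**Figure D2:**
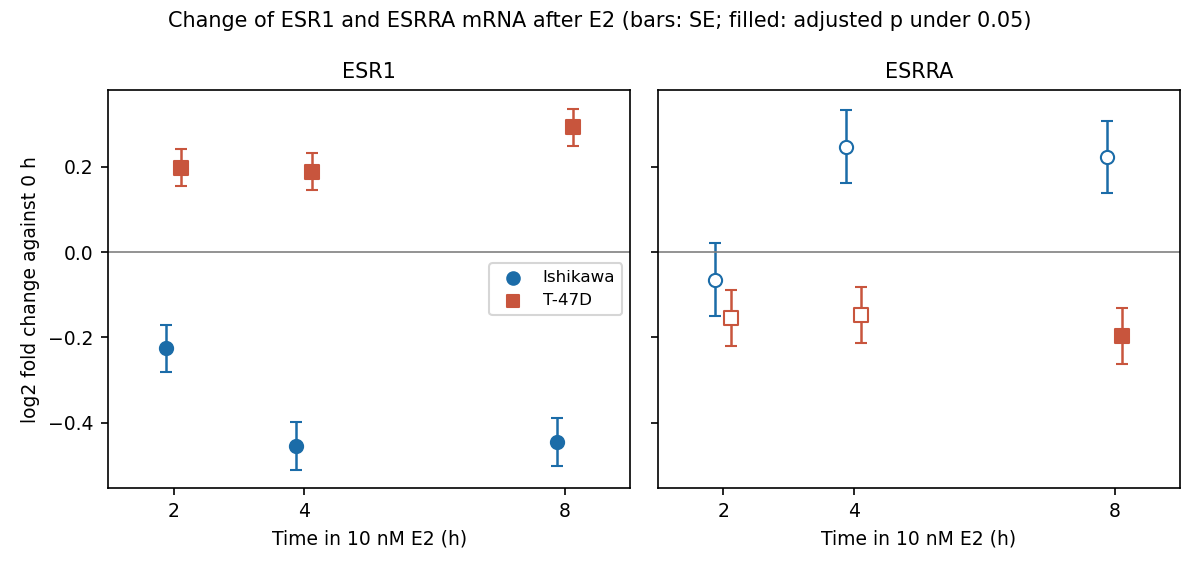
log2 fold change of ESR1 (left) and ESRRA (right) against 0 h (y axis) at 2, 4 and 8 h of E2 (x axis) in Ishikawa (circles) and T-47D cells (squares). Bars are standard errors and filled symbols passed an adjusted p of 0.05 in edgeR's quasi-likelihood test. The ESR1 values of the lines lie on opposite sides of 0 at all 3 times, from -0.45 to 0.29, and those of ESRRA at 4 and 8 h only.

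Because ESR1 and ESRRA were counted in the same libraries, their ratio does not depend on how libraries were scaled. Per kilobase of the longest annotated transcript (6.466 kb for ESR1 and 2.293 kb for ESRRA), the ESR1 to ESRRA ratio of counts was 2.4 and 2.01 in the untreated Ishikawa libraries and 1.25 to 1.47 in the 4 late ones. In T-47D cells it was 1.36 and 1.34 at 0 h and 1.64 to 2.06 in the 6 treated libraries. Neither line's treated late libraries overlapped its untreated ones. At 8 h the ratio was 1.38 ± 0.0283 in Ishikawa and 1.91 ± 0.212 in T-47D cells (SD, n = 2), the reverse of the order at 0 h, 2.2 ± 0.276 and 1.35 ± 0.0141. These ratios restate the ESR1 and ESRRA counts and were not tested.

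**Figure D3:**
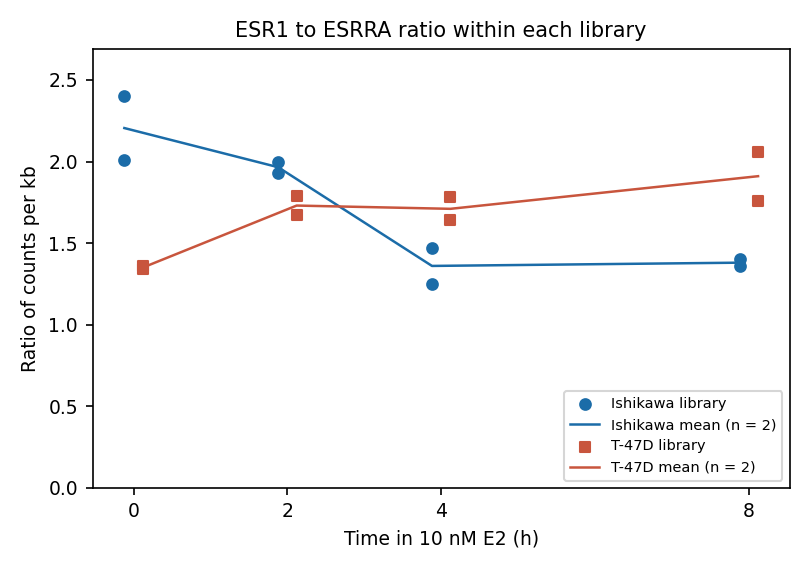
Ratio of ESR1 to ESRRA counts per kb of longest transcript within each library (y axis, from 0) against hours in 10 nM E2 (x axis). Circles are Ishikawa libraries, squares T-47D libraries, and lines join means of 2. The lines cross between 2 and 4 h, from 2.2 down to 1.38 in Ishikawa and from 1.35 up to 1.91 in T-47D cells.

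Per transcript length, ESR1 at 0 h reached 36.4 ± 1.57 CPM per kb in Ishikawa cells (SD, n = 2), above 89.4% of 15247 tested genes with a length. ESRRA reached 16.6 ± 1.35 CPM per kb, above 74.9%, against a median of 6.07 CPM per kb. In T-47D cells they stood closer, ESR1 at 26 ± 0.529 and ESRRA at 19.3 ± 0.179 CPM per kb, above 82.4% and 76.5% of 15006 genes. ESR2 stood at 0.0829 ± 0.0468 and 0.106 ± 0.0447 CPM per kb in the 2 lines. It thus lay above 4.09% and 5.68% of genes. The choice of length matters for ESR1, whose median transcript of 1.229 kb raises its untreated levels to 191 and 137 CPM per kb, and it leaves the order ESR1, ESRRA, ESR2, ESRRG in both lines.

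ESR2, the ERβ gene, was detected in every library at a low level. In Ishikawa cells 16 and 38 counts were found before E2, 25 and 15 after 2 h, 18 and 18 after 4 h, and 23 and 35 after 8 h, and in CPM the range of each later time overlapped that of 0 h. In T-47D cells there were 22 and 38 counts before E2, 60 and 42 after 2 h, 64 and 59 after 4 h, and 48 and 37 after 8 h. In CPM the T-47D 2 h libraries (1.285 and 1.014) and 4 h libraries (1.022 and 1.17) lay above both untreated ones (0.508 and 0.9403).

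Scaled to library size, the T-47D means were 0.7241 CPM at 0 h, 1.15 CPM after 2 h, 1.096 CPM after 4 h and 0.8699 CPM after 8 h. ESR2 differed from 0 h in T-47D cells by 0.67 ± 0.33 (SE, adjusted p = 0.252) at 2 h, 0.59 ± 0.33 (adjusted p = 0.225) at 4 h and 0.27 ± 0.34 (adjusted p = 0.606) at 8 h on the log2 scale. The 2 h value was 0.30 without replicate 1 of 0 h and 1.18 without replicate 2 of 0 h, and the 4 h value 0.21 and 1.10, with no call in any of these fits. In Ishikawa cells, the differences of -0.46 ± 0.53, -0.40 ± 0.54 and -0.00 ± 0.44 had adjusted p of 0.721, 0.672 and 1.00. A change of ESR1's size was not detectable at this depth. Between the lines at 0 h ESR2 differed by 0.34 ± 0.46 (T-47D against Ishikawa, adjusted p = 0.497). ESR1 exceeded ESR2 per kb by 241- to 797-fold across the Ishikawa libraries and 158- to 356-fold across the T-47D libraries, so ERα transcripts dominated in all 16.

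ESRRG, the ERRγ gene, was close to undetected. In Ishikawa cells it had 6 and 2 counts before E2, 8 and 0 after 2 h, 3 and 4 after 4 h, and 2 and 0 after 8 h, and the gene did not reach the filter on low counts in that line. In T-47D cells it had 4 and 12 counts before E2, 4 and 12 after 2 h, 2 and 0 after 4 h, and 6 and 2 after 8 h. It entered the T-47D test only through the 2 libraries with 12 counts, both replicate 2, so its listing there is no support for a change. Its difference at 4 h was -3.27 ± 1.2 on the log2 scale (adjusted p = 0.0599), a fitted value that depends on the prior count, and without replicate 1 of 0 h it passed at -3.89 (adjusted p = 0.0353). The 3 libraries with a count of 0 allowed up to 0.0535, 0.0666 and 0.0595 CPM, the level of 3 counts. ESRRB, the ERRβ gene, had 0 to 8 counts per library and did not reach the filter. GPER1, the gene of a membrane receptor for estrogen, had 71 to 176 counts in Ishikawa and 8 to 26 in T-47D libraries and did not pass a test after E2.

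The genes beside the members were measured to place their changes. CCDC170 ends 35498 bp before the start of the annotated ESR1 span, on the same strand. The canonical ESR1 transcript start lies further on, inside that span. CCDC170 held 20.6 ± 1.71 CPM in T-47D cells at 0 h. It rose there by 0.30 ± 0.077 on the log2 scale at 8 h (SE, adjusted p = 0.00671), close to the ESR1 value of 0.29. The CCDC170 call was lost without replicate 2 of T-47D 0 h (0.22, adjusted p = 0.0882). In Ishikawa cells it had 16 to 51 counts and did not pass (-0.23, adjusted p = 0.764). SYNE1, a nuclear envelope protein gene that overlaps the ESR1 span by 7933 bp on the opposite strand with 0 shared exon bases, fell at 8 h in Ishikawa cells (-0.56 ± 0.12, adjusted p = 0.0034). It fell in T-47D cells too (-0.34 ± 0.12, adjusted p = 0.0372), against the direction of ESR1 there, a call lost without either 0 h library or replicate 1 of 8 h (adjusted p from 0.0796 to 0.253) and with the 4 late libraries as 1 group (0.0903).

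SYNE2, which overlaps 142202 bp of the ESR2 span on the opposite strand without sharing exon bases, fell in Ishikawa cells at 8 h by 0.32 on the log2 scale (adjusted p = 0.00137) and stood at 0.00 in T-47D cells (adjusted p = 0.977). TRMT112, a methyltransferase subunit gene, shares 284 exon bases with ESRRA on the opposite strand. The libraries were directional, but whether the counting used strand is not given in the sources used here, and then reads in those bases cannot be told apart. TRMT112 held 114 ± 3.37 CPM in Ishikawa and 174 ± 4.76 CPM in T-47D cells at 0 h, and its 8 h differences were -0.04 ± 0.078 (adjusted p = 0.762) and -0.06 ± 0.046 (adjusted p = 0.361). Its part in the ESRRA values was not tested.

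Genes that E2 is known to induce through ERα were read from a list of 20. It was chosen with earlier results of these data known, so its counts only describe. In Ishikawa cells 17 passed the filter on low counts, and at 8 h 13 rose and 1 (ADCY9, an adenylate cyclase gene) fell, beside 22.1% of all genes called in either direction, with a median log2 fold change of 0.91 beside -0.01 for all genes. The ADCY9 call was lost with only the 0 and 8 h libraries in the fit and without replicate 2 of 0 h, either 2 h library or replicate 1 of 8 h. PGR, the progesterone receptor gene, rose by 3.75 ± 0.19, CA12 (a carbonic anhydrase) by 2.94 ± 0.13 and TGFA (an EGF receptor ligand) by 1.88 ± 0.056 on the log2 scale (SE, edgeR's adjusted p = 2.48e-09, 8.92e-10 and 6.72e-12). In T-47D cells all 20 were tested and 19 rose, beside 29.7% of all genes called in either direction, with a median of 1.07 beside 0.00. CXCL12 (a chemokine) rose there by 4.27 ± 0.074 (adjusted p = 7.38e-17). KRT13 (a keratin) went from 3 and 2 counts at 0 h to 194 and 166 at 8 h, and EGR3 (a transcription factor) from 2 and 2 to 37 and 45 (adjusted p = 6.55e-10 and 8.31e-05). Both began at or under 3 counts, so their fitted folds depend on the prior count and are not given. ESR1 thus fell in one line and rose in the other while most listed targets rose in both.

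Of the partner factors and coregulators of ERα, 2 of 13 tested rose in Ishikawa cells at 8 h and 0 fell, beside 22.1% of all genes called. The number that fell was 1 or 2 under 4 alternatives. NRIP1, a corepressor induced by E2, rose by 1.16 ± 0.071 (adjusted p = 2.75e-08). In T-47D cells 2 of 14 rose, NRIP1 by 0.69 ± 0.06 (adjusted p = 9.42e-08) and TFAP2C by 0.52 ± 0.044 (adjusted p = 8.40e-08), and 4 fell, led by the coactivator NCOA3 (-0.40 ± 0.042, adjusted p = 1.30e-06), beside 29.7% of all genes called. With only the 0 and 8 h libraries in the fit, or without replicate 2 of T-47D 0 h, 2 fell. The list medians were 0.03 and -0.07.

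FOXA1 and GATA3, factors that open chromatin for ERα in breast cells, differed between the lines. FOXA1 stood at 11.2 and 11.4 CPM in untreated Ishikawa libraries and at 431 and 411 CPM in untreated T-47D libraries. GATA3 had 0 to 4 counts in the Ishikawa libraries and 1020 to 1230 CPM in the T-47D libraries. In T-47D cells FOXA1 fell by 0.46 on the log2 scale at 2 h (adjusted p = 1.14e-06) and by 0.14 at 4 h (adjusted p = 0.0386), and stood at -0.09 (adjusted p = 0.147) at 8 h. Its 4 h call was lost without replicate 1 of 0 h, any 1 of the 2 and 4 h libraries, or with the late libraries as 1 group (adjusted p from 0.0522 to 0.225), and at 8 h it passed without replicate 2 of 8 h (-0.14, adjusted p = 0.0458). GATA3 fell by 0.20 at 2 h (adjusted p = 0.000861) and stood at -0.06 (adjusted p = 0.256) at 8 h. The GATA3 call was lost without replicate 1 of 2 h (adjusted p = 0.084). ESR1 was higher at all 3 times in the same libraries.

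Of 10 chaperones and ubiquitin ligases that handle steroid receptors, 9 rose in Ishikawa cells at 8 h (median 0.26), beside 22.1% of all genes called in either direction, with HSPA8 at 0.44 ± 0.067, FKBP4 at 0.36 ± 0.058 and PTGES3 at 0.34 ± 0.062 (adjusted p = 0.000311, 0.000527 and 0.00131). That count was 3 without replicate 2 of Ishikawa 0 h and 4 without replicate 2 of Ishikawa 8 h. In T-47D cells 7 of 10 rose (median 0.22), beside 29.7% of all genes called, with FKBP4, a cochaperone of steroid receptors, at 1.31 ± 0.033 (adjusted p = 1.07e-14), HSPA8 at 0.53 ± 0.025 (adjusted p = 3.24e-11) and HSP90AB1 at 0.32 ± 0.028 (adjusted p = 9.92e-08). The T-47D count also moved under the alternatives, and was lower without replicate 2 of T-47D 0 h. None of the 10 was called lower in either line.

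PGC-1α and PGC-1β are the coactivators through which estrogen-related receptors act. PPARGC1A, the PGC-1α gene, held 7.02 and 5.56 CPM in untreated Ishikawa libraries and 2.95 to 3.69 CPM in the 6 treated ones. It fell there at 2 h (-0.94 ± 0.17, adjusted p = 0.00366), 4 h (-0.86 ± 0.18, adjusted p = 0.004) and 8 h (-0.96 ± 0.17, adjusted p = 0.00136), a 2 h call lost without replicate 1 of 2 h (adjusted p = 0.0626). In T-47D cells it stood at 1.85 and 1.63 CPM at 0 h and 1.44 to 2.46 CPM later, and no time passed (0.34 ± 0.24 at 8 h, adjusted p = 0.311). The difference between the lines passed at 4 h and at 8 h (1.30 ± 0.31, adjusted p = 0.00864 at 8 h). Its 4 h call was lost without replicate 1 of Ishikawa 0 h or replicate 2 of Ishikawa 4 h. It was also lost without replicate 2 of T-47D 0 h or of T-47D 4 h, with values of 1.06 to 1.16 in these fits.

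PPARGC1B, the PGC-1β gene, went the other way in Ishikawa cells, from 15.2 and 14.6 CPM at 0 h to 25.5 to 31.2 CPM in the treated libraries. It rose by 0.82 ± 0.094 after 2 h, 1.00 ± 0.094 after 4 h and 0.94 ± 0.093 after 8 h (adjusted p = 3.69e-05, 3.21e-06 and 5.98e-06). In T-47D cells it rose from 5.73 and 6.26 CPM to 10.6 and 11.3 CPM at 8 h (0.87 ± 0.12, adjusted p = 2.03e-05). The PPARGC1B value of T-47D cells at 2 h, 0.36 ± 0.12, did not pass (adjusted p = 0.0755), so the gene rose in both lines by 4 h, while PPARGC1A fell in Ishikawa cells.

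**Figure D4:**
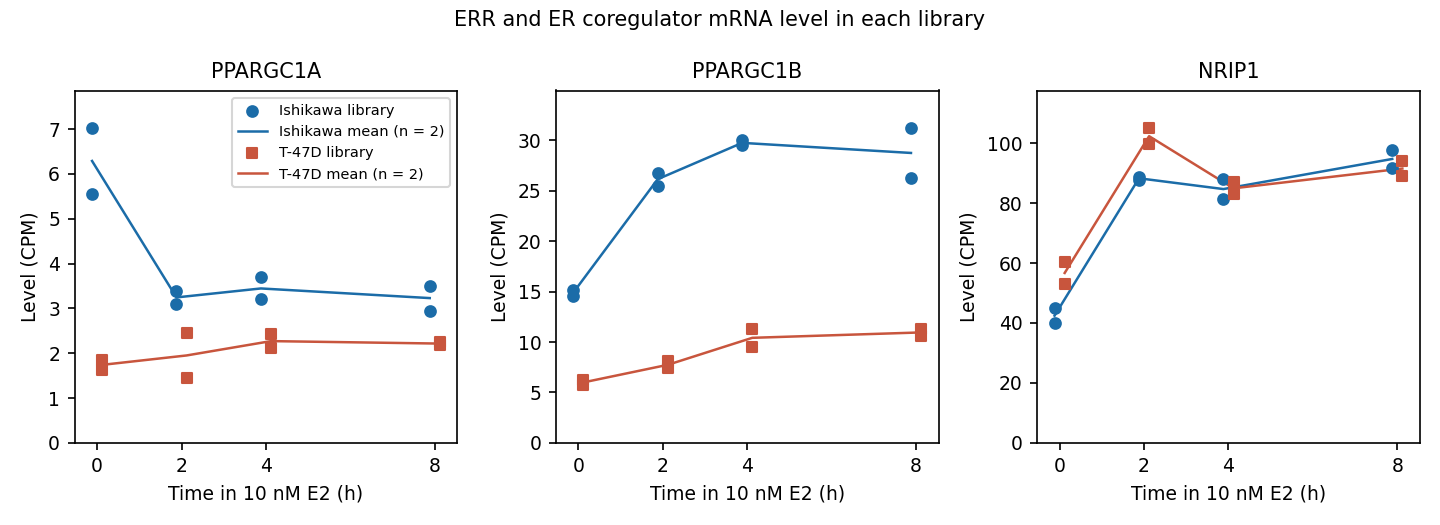
Level of PPARGC1A, PPARGC1B and NRIP1 in CPM (y axis, from 0, a separate scale for each gene) against hours in 10 nM E2 (x axis), with circles for Ishikawa libraries, squares for T-47D libraries and lines joining means of 2. PPARGC1A fell from a mean of 6.29 to 3.23 CPM in Ishikawa cells by 8 h, PPARGC1B rose from 14.9 to 28.8 CPM in Ishikawa and from 5.99 to 10.9 CPM in T-47D cells, and NRIP1 was higher in every treated library of both lines.

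In the wider list of estrogen-related receptor coregulators and oxidative metabolism genes, 5 of 23 tested at 8 h rose and 2 fell in Ishikawa cells, and 7 of 24 rose and 1 fell in T-47D cells, beside 22.1% and 29.7% of all genes called in either direction, with list medians of 0.06 and 0.08. CYCS (cytochrome c) rose in T-47D cells by 0.65 ± 0.062 (adjusted p = 3.44e-07). CPT1B, a carnitine palmitoyltransferase gene, fell in Ishikawa cells by 2.02 on the log2 scale (SE 0.57, adjusted p = 0.0193), a call lost without replicate 2 of 0 h or replicate 1 of 8 h (adjusted p = 0.138 and 0.183). Of the genes that rose, NRIP1 and PPARGC1B are coregulators and not enzymes of oxidative metabolism.

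Genes with the course most like that of a member were found by the root mean square difference, over 16 libraries, of log2 CPM less the line's mean at 0 h, among genes with at least 5 CPM on average in each line. Nearest to ESR1 among 9913 candidates were CTBP2, a corepressor gene (0.0679), CABYR (0.0753) and KIRREL (0.0885), against a median of 0.315. CTBP2 stood at -0.37 in Ishikawa and 0.23 in T-47D cells at 8 h on that scale, beside -0.44 and 0.29 for ESR1. Nearest to ESRRA were TMEM43 (0.0636), TOMM40L (0.067) and TMED3 (0.0694), with a median of 0.216. For ESR2 they were ITPKC (0.367), NUMBL (0.373) and AKNA (0.375), with a median of 0.542. ESR2 passed no test and had 15 to 38 counts in Ishikawa and 22 to 64 in T-47D libraries, so this likeness rests on few counts. At 8 h in Ishikawa cells ITPKC stood at -0.25 and ESR2 at 0.06.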

How the data were processed

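RNA of both cell lines was sequenced in bulk. The submitters' processing notes name HISAT2, hg19, SAMtools, featureCounts and DESeq2. The authors deposited whole-number counts for each gene, unnormalised, in 1 table per cell line. Versions, strand and read-pair settings are not given in the sources used here. Groups came from the sample labels.

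Genes were filtered with edgeR 4.0.16 (filterByExpr, minimum count 10), scaled by TMM and tested with the quasi-likelihood F-test in R 4.3.3, each line alone for time and all 16 libraries for differences between lines. The threshold was a Benjamini-Hochberg adjusted p of 0.05 over all genes tested. Standard errors are the log2 fold change over the root of F, log2 CPM used a prior count of 2, and the floor of 3 counts covers counting error only. The scripts were tested on simulated data. GENCODE gave loci and lengths (GRCh37, 90.4% of symbols matched). Alternatives included DESeq2 1.42.0. Members and lists were chosen with earlier results of these data known. Besides members and neighbours, the text names up to 3 called genes per list and line with the largest change at 8 h, the coregulators PPARGC1A, PPARGC1B, NRIP1, FOXA1 and GATA3, and the 3 genes most like a member. ADCY9, COL1A1 and the markers TFF1, TFF3, PIP, TRPS1, ANKRD30A and HOXA9 were named after their values were seen. One gene that this rule names is not reported here.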

Additional observations from a re-analysis of the deposited data

Results flagged for a closer look

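The response of ESR1 to E2 differed between the lines at each time in a test of the difference itself, by 0.44 after 2 h, 0.66 after 4 h and 0.74 after 8 h on the log2 scale (T-47D change minus Ishikawa change, edgeR's quasi-likelihood test over 16 libraries, adjusted p = 0.00039, 1.90e-06 and 3.40e-07). The response of ESRRA differed at 8 h by -0.42 (adjusted p = 0.022), where 10.0% of all genes tested passed. Unlike the ESR1 differences, this ESRRA call was lost without certain single libraries, with values from -0.53 to -0.33 over such fits. With 2 libraries per group, no library could be tested as an outlier within its group.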

How the results depend on the processing

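Of 875 alternative values for 51 member results, 792 kept their direction and their side of the threshold, and each of the 41 that changed sign belonged to a difference that had not passed. ESR1 kept its calls at 4 and 8 h against 0 h in Ishikawa cells, at 8 h in T-47D cells, between the lines at 0 h and in the 3 differences of response without each library in turn. The replicate number did not pair the samples (correlations of deviations from -0.114 to 0.0596), and with it as a replicate block ESR1 in Ishikawa cells no longer passed at 2 h (-0.23, adjusted p = 0.0514) or at 4 h against 2 h (-0.23, adjusted p = 0.0722). With the median transcript length, levels at 0 h in Ishikawa and T-47D cells became 191 and 137 CPM per kb for ESR1, 0.301 and 0.385 for ESR2, and 25.2 and 29.3 for ESRRA. With the 4 and 8 h libraries as 1 group, ESRRA passed in Ishikawa cells (0.23), T-47D cells (-0.17) and their difference (-0.40), while the ESRRG difference of response turned to -1.17 and TRMT112 in Ishikawa cells to 0.035. Without a filter ESRRA passed in Ishikawa cells at 4 h (0.23), and its 4 h difference of response passed there too (-0.40), with at least 10 counts in every library (-0.39), with RLE scaling (-0.42) and with DESeq2 (-0.42). ESRRA at 4 h against 2 h in Ishikawa cells did not pass in edgeR's quasi-likelihood test (0.31, adjusted p = 0.0756). That step passed without a filter (0.31, adjusted p = 0.00548) and with DESeq2 (0.32, adjusted p = 0.0354). For ESR2 in Ishikawa cells at 8 h the sign turned with counts divided by 2 (0.015), DESeq2 (0.022), the replicate block (0.015) and RLE scaling (0.0027). The cause was not tested for any of these. Where the filter of an alternative left ESRRG out, no value was given.

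Leaving out 1 library at a time moved ESR1 over -0.26 to -0.18 for Ishikawa 2 h against 0 h, -0.031 to 0.055 for Ishikawa 8 h against 4 h, 0.19 to 0.23 for T-47D 2 h against 0 h and 0.15 to 0.24 for T-47D 4 h against 0 h. For ESR1 it further gave -0.057 to 0.029 for T-47D 4 h against 2 h. Leaving out 1 library at a time moved ESR2 over -1.08 to 0.28 for Ishikawa 2 h against 0 h, -0.88 to 0.34 for Ishikawa 4 h against 0 h, -0.42 to 0.68 for Ishikawa 4 h against 2 h and -0.58 to 0.74 for Ishikawa 8 h against 0 h. For ESR2 it further gave -0.17 to 0.86 for Ishikawa 8 h against 4 h, -0.16 to 1.08 for T-47D against Ishikawa at 0 h, -0.46 to 0.81 for the difference of response for 8 h against 0 h and -0.23 to 0.11 for T-47D 4 h against 2 h. For ESR2 it further gave -0.11 to 0.78 for T-47D 8 h against 0 h. Leaving out 1 library at a time moved ESRRA over -0.15 to 0.028 for Ishikawa 2 h against 0 h, 0.13 to 0.35 for Ishikawa 4 h against 0 h, -0.12 to 0.087 for Ishikawa 8 h against 4 h and 0.15 to 0.30 for T-47D against Ishikawa at 0 h. For ESRRA it further gave -0.50 to -0.29 for the difference of response for 4 h against 0 h, -0.53 to -0.33 for the difference of response for 8 h against 0 h, -0.028 to 0.037 for T-47D 4 h against 2 h and -0.30 to -0.094 for T-47D 8 h against 0 h. For ESRRA it further gave -0.16 to 0.048 for T-47D 8 h against 4 h. Leaving out 1 library at a time moved ESRRG over -1.16 to 4.97 for the difference of response for 2 h against 0 h, -0.19 to 3.803 for the difference of response for 8 h against 0 h, -1.15 to 0.97 for T-47D 2 h against 0 h and -6.15 to -2.23 for T-47D 4 h against 0 h. Leaving out 1 library at a time moved TRMT112 over -0.16 to 0.072 for Ishikawa 8 h against 0 h, -0.16 to 0.057 for the difference of response for 8 h against 0 h and -0.12 to 0.0026 for T-47D 8 h against 0 h. The number of genes called moved by over 1.5 times without a filter, from 686 to 1162 in Ishikawa cells at 2 h, from 377 to 945 at 4 h against 2 h and from 2 to 21 at 8 h against 4 h, and in T-47D cells from 530 to 830 and from 533 to 914 for those later steps. With the late libraries as 1 group it moved from 2251 to 4055 in Ishikawa cells at 4 h. Single libraries moved these counts by over 1.5 times too. In Ishikawa cells the count at 2 h was 322 without replicate 2 of 2 h, 343 without replicate 1 of 2 h, 358 without replicate 2 of 0 h and 1735 without replicate 1 of 0 h, that at 4 h (2251) was 1027 without replicate 2 of 0 h and 1002 without replicate 1 of 4 h, and that at 8 h (3488) was 1409 without replicate 2 of 0 h and 2024 without replicate 2 of 8 h. In T-47D cells the count at 2 h (1450) was 816 and 847 without replicate 1 or 2 of 2 h, and that at 4 h (3355) was 2166 without replicate 2 of 0 h and 1821 without replicate 1 of 4 h. The shares of all genes set beside the members move with them. Leaving out 1 library moved ESR2 in T-47D cells over 0.30 to 1.18 at 2 h and 0.21 to 1.10 at 4 h. At 8 h against 4 h in Ishikawa cells edgeR and DESeq2 each called 2 genes, and 554 and 384 genes had an unadjusted p under 0.05.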
